A study of Arabidopsis thaliana with 27 samples.

Results

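The 10 genes described are the JASMONATE ZIM-DOMAIN (JAZ) repressors JAZ1 (AT1G19180), JAZ2 (AT1G74950), JAZ3 (AT3G17860), JAZ5 (AT1G17380), JAZ6 (AT1G72450), JAZ7 (AT2G34600), JAZ8 (AT1G30135), JAZ9 (AT1G70700), JAZ10 (AT5G13220) and JAZ12 (AT5G20900). They were picked by gene ID out of 33557 genes in the deposited tables, and all 10 were found. Their RNA was measured by RNA-seq in whole wild-type Arabidopsis thaliana seedlings of the accession Col0, raised at 17 °C under long days until day 10, per the labels. Seedlings were shifted 1 h after dawn (ZT1), and 27 libraries from 3 shift experiments were analysed. In the first experiment seedlings stayed at 17 °C or were moved to 27 °C, with 1 library at 0 min and 2 libraries at each temperature after 15 min, 1 h and 4 h. In the second, seedlings stayed at 17 °C or were moved to 37 °C, with 1 library at 0 min and 1 at each temperature and time. The third has the same layout with 22 °C as the starting temperature and 27 °C after the shift; the growth text in the labels names 17 °C only. Seedlings kept at the starting temperature are called unshifted here (15 libraries) and those moved to a warmer one shifted (12 libraries).

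JAZ proteins hold jasmonate responses off. They bind transcription factors such as MYC2 through their Jas domain and recruit the co-repressor TOPLESS, either through the adaptor NINJA or through an EAR motif of their own. When jasmonoyl-isoleucine, the active hormone, accumulates after wounding, touch or attack, the F-box receptor COI1 binds the JAZ proteins and they are degraded, which frees the transcription factors. Many JAZ genes are themselves targets of those factors, so their RNA rises early in a jasmonate response and the new repressor closes the loop again. JAZ1, JAZ2, JAZ5 and JAZ6 form one clade, JAZ3 and JAZ9 belong to another, JAZ7 and JAZ8 to one more, whose proteins lack the canonical degron that COI1 binds, and JAZ10 and JAZ12 fall outside these. JAZ10 is known for splice forms that escape degradation.

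MYC2 and its relatives bind the G-box, so the 500 bases upstream of each annotated gene start were searched on both strands. A G-box (CACGTG, a palindrome) was found upstream of 6 of the 10 genes, JAZ2, JAZ3, JAZ6, JAZ7, JAZ8 and JAZ9, and in 9.3% of 27443 protein-coding promoters of the same length. JAZ1 has none in this window. It has instead 3 matches to the rapid stress element (CGCGTT), which 4.6% of all promoters hold and no other member does. The stretches below are shown because JAZ2, JAZ7 and JAZ8 hold the G-boxes nearest to a member's RefSeq start, and JAZ1 holds the rapid stress element. They are read 5′ to 3′ on the gene's strand from the RefSeq TAIR10.1 assembly, with the G-box in capitals for JAZ2, JAZ7 and JAZ8, and a pair of overlapping rapid stress elements, 1 on each strand, in capitals for JAZ1.
JAZ2, chr1:28150487-28150532, minus strand: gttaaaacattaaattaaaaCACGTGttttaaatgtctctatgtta
JAZ7, chr2:14572976-14573021, plus strand: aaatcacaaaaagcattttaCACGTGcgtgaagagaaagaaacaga
JAZ8, chr1:10596322-10596351, plus strand: gtgtggaaaaaaacattttcCACGTGagag
JAZ1, chr1:6621626-6621673, plus strand: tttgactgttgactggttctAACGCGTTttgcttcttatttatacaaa
The capitals begin 66 bases upstream of the gene start in JAZ2, 34 in JAZ7, 10 in JAZ8 and 131 in JAZ1. The G-box variant AACGTG was found in 4 members (JAZ3, JAZ5, JAZ6 and JAZ12) against 13.5% of all promoters, and the W-box (TTGACC or TTGACT) in 5 against 45.2%. The core of the heat shock element (GAANNTTC or TTCNNGAA) was found only in JAZ10 among the members, at 3 places, and in 30.2% of all promoters. The evening element (AAAATATCT) was found in JAZ8 and JAZ10 and in 4.4% of all promoters. The window and the distances depend on the RefSeq gene starts. For JAZ12 the RefSeq and deposited starts are equal, and for every other member the RefSeq start lies upstream of the start in the deposited data. Examples are JAZ1 (6621777 against 6622094), JAZ7 (14573030 against 14573080) and JAZ8 (10596352 against 10596492). Counted from the deposited starts, a JAZ3 G-box is nearer than the one of JAZ8. These matches are letters in a window, and no binding was measured here.

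**Figure D1:**
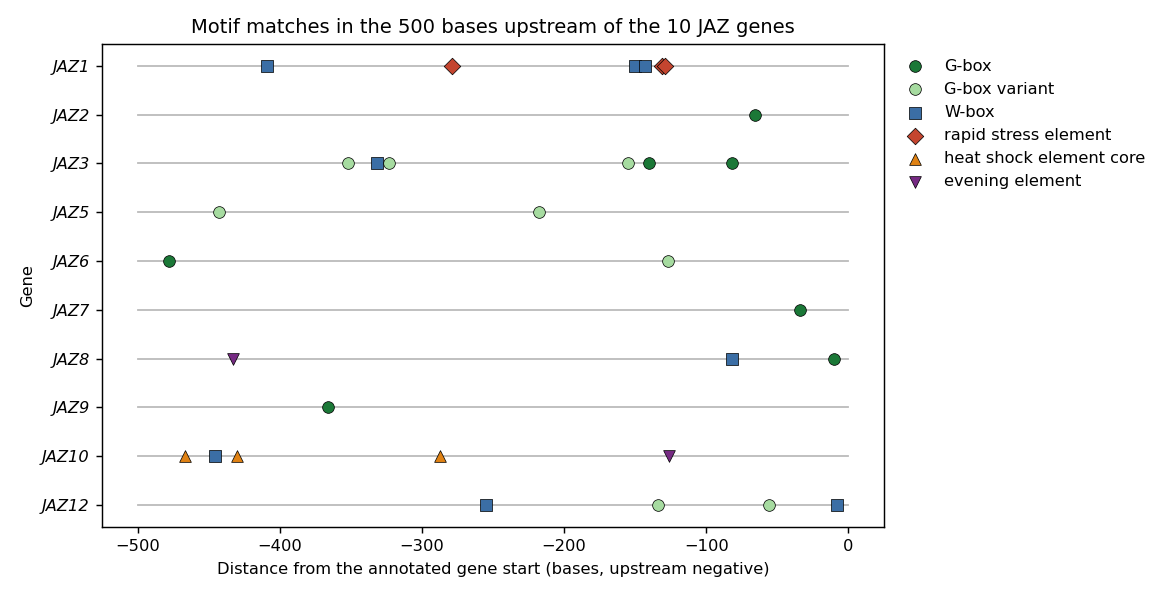
Motif matches in the 500 bases upstream of each of the 10 JAZ genes, plotted by distance in bases from the annotated start (0 at the right); each symbol is 1 match and symbols mark the motif. JAZ2, JAZ7 and JAZ8 have a G-box within 66 bases of the start, and JAZ1 holds the 3 rapid stress element matches.

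Library totals ran from 5790129 to 30741125 counts. The shift was visible in every experiment: HSP70-4, a heat-induced chaperone, stood at 6.60 to 284 TPM in unshifted and at 65.5 to 3150 TPM in shifted libraries, each shifted library being above its unshifted counterpart of the same experiment and time. TPM is a transcript level scaled for gene length and library total, so it can be compared between genes. Shoot markers (LHCB1.1, LHCB1.3, LHCA1, RBCS1A and RCA) and the root markers CASP1, CASP2, EXPA7 and COBL9 were above 0 in all 27 libraries, and the seed storage genes CRA1 and SESA1 did not pass 2.96 TPM. The 1 h libraries numbered 1 of the 17 to 27 °C experiment hold 5.43% (17 °C) and 6.45% (27 °C) chloroplast counts, against 0.202% to 1.54% elsewhere. The members' count at 27 °C after 1 h is given without them too. In every duplicated group of that experiment the library numbered 1 held the larger chloroplast share, as at 17 °C after 15 min (1.25% against 0.284%). Whole seedlings were pooled, and fewer expressing cells cannot be told apart from less RNA per cell.

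By median TPM over the 27 libraries the members ordered as JAZ9 (111.6), JAZ12 (71.8), JAZ1 (51.7), JAZ6 (51.4), JAZ2 (37.9), JAZ3 (25.8), JAZ10 (7.70), JAZ7 (5.95), JAZ5 (3.48) and JAZ8 (1.34). The ranges of neighbours in this order overlapped in every case. JAZ12 was the steadiest, between 57.1 and 85.7 TPM, a 1.5-fold range, and JAZ9 ranged from 47.7 to 297.8 TPM. JAZ5 ranged from 1.14 to 32.3 TPM, JAZ7 from 0 to 42.1 TPM and JAZ8 from 0 to 15.0 TPM. The members with low medians were thus the ones with the widest relative range. Summed over the 10 genes, the level ran from 240 TPM at 27 °C after 4 h to 862 TPM at 17 °C after 1 h, both in the 17 to 27 °C experiment. In that experiment's 0 min library JAZ9 made up 30.3% of the sum and JAZ12 25.7%. Median levels of further JAZ genes were 13.7 TPM for JAZ11, 3.68 TPM for JAZ4 and 0.778 TPM for JAZ13.

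**Figure D2:**
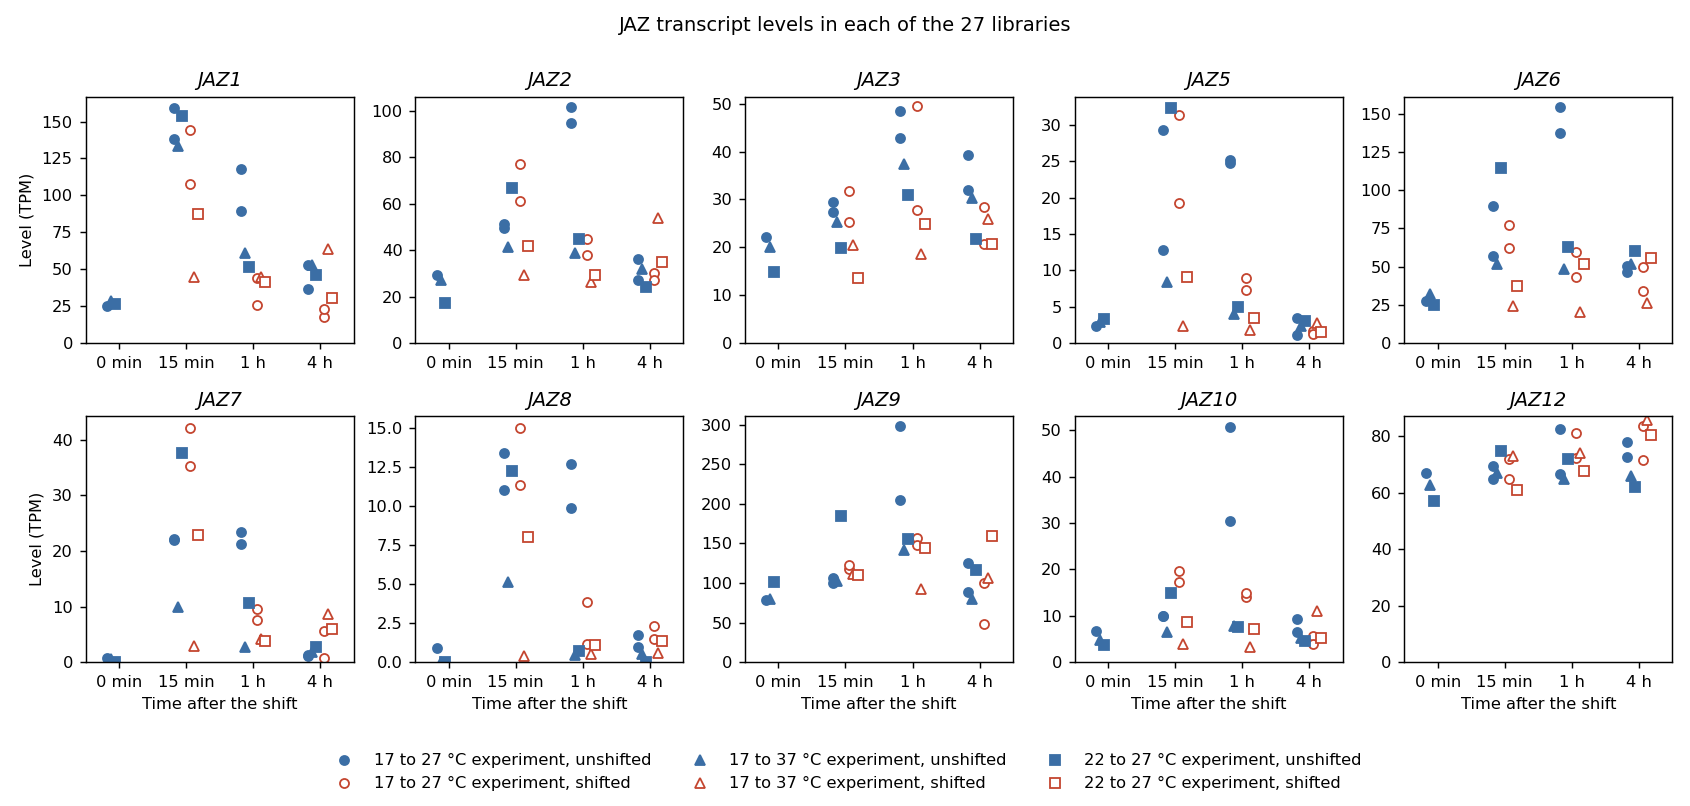
TPM of each JAZ gene (1 panel each, own scale from 0) in the 27 libraries by time after the shift; filled blue symbols are unshifted and open red symbols shifted libraries, and shapes mark the experiment. JAZ1 stands at 25.3 to 28.2 TPM at 0 min and at 134 to 159 TPM in the unshifted libraries at 15 min, whereas JAZ12 stays between 57.1 and 85.7 TPM.

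Within 15 min of the shift time, JAZ1, JAZ7 and JAZ8 rose in seedlings that were not warmed at all. JAZ1 stood at 25.3, 28.2 and 26.4 TPM in the 0 min libraries of the 17 to 27, 17 to 37 and 22 to 27 °C experiments. At 15 min the unshifted libraries held 159 and 138 TPM in the first experiment, 134 TPM in the second and 154 TPM in the third. The groups did not overlap, and the smallest ratio within an experiment was 4.745, in the 17 to 37 °C experiment. In the fit over the 15 unshifted libraries, with experiment as a covariate, JAZ1 rose by a log2 fold change of 2.46 ± 0.27 (SE, edgeR adjusted p = 0.00043).

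JAZ7 was close to silent at 0 min, with 4, 3 and 0 counts (0.680, 0.536 and 0 TPM). At 15 min it was at 22.0, 22.2, 9.94 and 37.6 TPM in unshifted seedlings, and the fit gave a log2 fold change of 5.58 ± 0.76 (edgeR adjusted p = 0.0018). The ratio of its summed counts, each scaled by library total, was 49.95 (exact 95% counting interval 24.1 to 124.8). JAZ8, with 3, 0 and 0 counts at 0 min, was at 13.4, 11.1, 5.11 and 12.2 TPM at 15 min, a ratio of 44.6 (counting interval 15.1 to 217.8), and its call had an edgeR adjusted p of 0.0095. All 4 libraries at 15 min stood above all 3 at 0 min for both genes. These intervals cover counting error only. The JAZ8 call was lost without the 0 min library of the 17 to 27 °C experiment (adjusted p = 0.17), without that of the 22 to 27 °C experiment (0.059), or without either of the 2 single-library experiments (0.062 without 17 to 37 °C, 0.055 without 22 to 27 °C).

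So 3 of 10 members were called higher at 15 min, where 1.71% of 21035 tested genes were. The fitted value was above 0 for all 10, with a median log2 fold change of 1.28 against -0.01 over all genes tested. JAZ5, from the clade of JAZ1, had a large but variable value of 2.63 ± 0.72 (adjusted p = 0.14), its unshifted libraries at 15 min lying between 8.40 and 32.3 TPM and those at 0 min between 2.29 and 3.33 TPM. JAZ6 was at 1.42 ± 0.44 (0.23), JAZ2 at 1.13 ± 0.33 (0.18) and JAZ10 at 1.05 ± 0.57 (0.66). JAZ3 and JAZ9 were at 0.39 ± 0.10 (0.070) and 0.52 ± 0.33 (0.73), and JAZ12 at 0.17 ± 0.11 (0.74). DESeq2 called 7 members higher.

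Other jasmonate genes and early touch and wound genes rose in the same step. Of 15 early touch and wound genes 10 were higher and none lower, led by the calmodulin-like gene CML37 (5.65 ± 0.61, adjusted p = 0.00028), the transcription factors WRKY40 (5.64 ± 0.82, 0.0045) and ZAT10 (4.37 ± 0.35, 4.5e-05), and CML38 (4.27 ± 0.58, 0.0023). Among 8 tested jasmonate transcription factors, MYC2 (1.60 ± 0.35, adjusted p = 0.043), the main activator, and JAM1 (1.301 ± 0.28, 0.034), a repressor of the same family, rose. CYP94B3, which oxidises jasmonoyl-isoleucine, was the 1 of 10 tested breakdown genes that rose (3.53 ± 0.48, 0.0024). The breakdown list also holds the methyltransferase JMT, which is not a breakdown enzyme. None of 13 tested synthesis genes passed, with a median of 0.80. The receptor and co-repressor genes (COI1, ASK1, CUL1, NINJA, TPL, HDA6 and HDA19) did not pass either, with a median of -0.03. HSP70-4 was higher too in these unshifted libraries (1.09 ± 0.25, adjusted p = 0.049). The unshifted seedlings share handling and time of day, and these cannot be told apart.

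**Figure D3:**
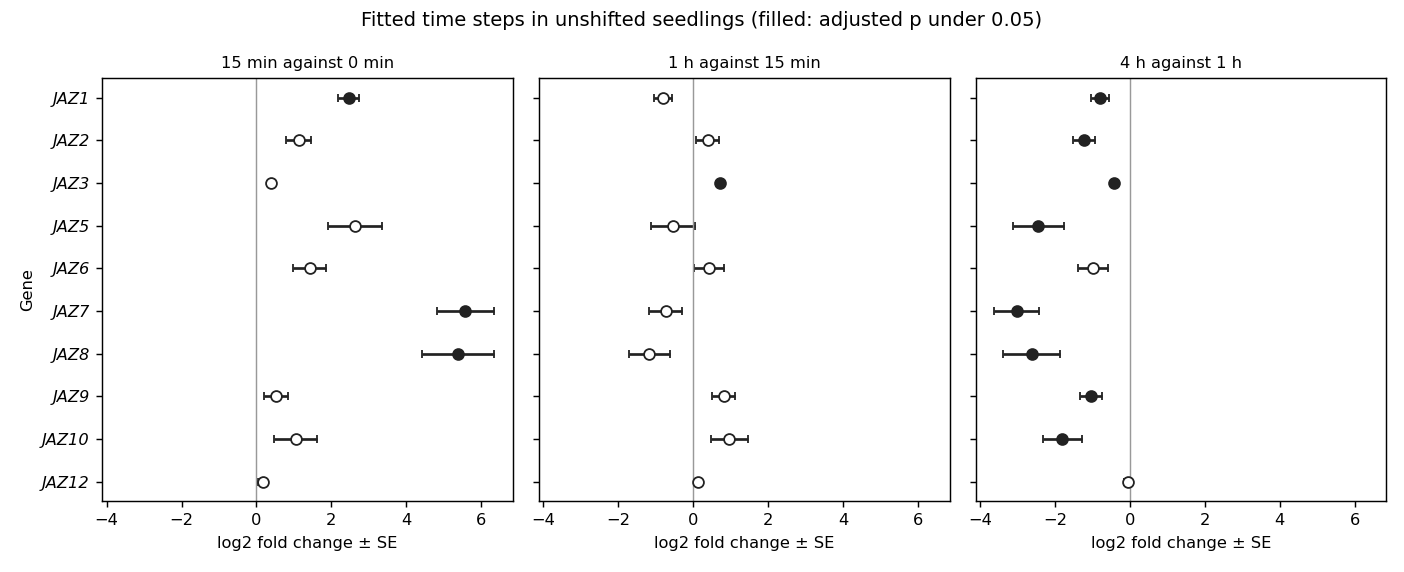
Fitted log2 fold changes (± SE) of each JAZ gene between successive times in the 15 unshifted libraries, with filled symbols for an edgeR adjusted p under 0.05. From 0 to 15 min JAZ1, JAZ7 and JAZ8 are filled on the right, from 15 min to 1 h JAZ3 is, and from 1 h to 4 h 8 genes are filled on the left.

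Between 15 min and 1 h in unshifted seedlings, JAZ3 rose by a log2 fold change of 0.72 ± 0.09 (edgeR adjusted p = 0.00080). It was at 29.5, 27.4, 25.3 and 19.8 TPM at 15 min and at 42.8, 48.5, 37.3 and 30.9 TPM at 1 h, so all libraries at 1 h stood above all at 15 min. It was the 1 member called in this step, in which 1.13% of genes were called higher. Without the 17 to 27 °C experiment the JAZ3 call was lost (0.59, adjusted p = 0.13) and JAZ1 was called lower (-1.35, adjusted p = 0.013). DESeq2 called both JAZ3 higher and JAZ1 lower.

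The experiments stood apart in the level after 1 h. In the 17 to 27 °C experiment, JAZ7 was still at 21.2 and 23.5 TPM in the 17 °C libraries, while the unshifted libraries of the other experiments held 2.73 TPM (17 °C) and 10.7 TPM (22 °C). JAZ5 was at 24.8 and 25.2 TPM against 4.04 and 4.95 TPM. JAZ8 was at 12.7 and 9.91 TPM against 0.448 and 0.704 TPM. The same held for members that were higher at 1 h than at 15 min in that experiment. JAZ2 was at 101.8 and 94.7 TPM against 38.9 and 45.0 TPM, JAZ10 at 50.6 and 30.5 TPM against 7.82 and 7.70 TPM, and JAZ9 at 297.8 and 205.5 TPM against 142.1 and 155.7 TPM. The 10 genes summed to 862 and 776 TPM there and to 408 and 442 TPM in the other experiments. The higher libraries were both 17 °C libraries of the first experiment, one with 5.43% and one with 0.252% chloroplast counts.

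By 4 h most of these levels were down again in unshifted seedlings. From 1 h to 4 h, 8 of 10 members fell, where 9.22% of genes did. JAZ7 fell by 3.02 ± 0.60 on the log2 scale (adjusted p = 0.0048), JAZ8 by 2.63 ± 0.77 (0.033), JAZ5 by 2.45 ± 0.68 (0.032) and JAZ10 by 1.81 ± 0.52 (0.033). JAZ2 fell by 1.23 ± 0.31 (0.017), JAZ9 by 1.04 ± 0.30 (0.035), JAZ1 by 0.81 ± 0.23 (0.033) and JAZ3 by 0.43 ± 0.09 (0.0048). JAZ6 (-0.99 ± 0.40, 0.12) and JAZ12 (-0.06 ± 0.10, 0.76) did not pass. These calls depend on the 17 to 27 °C experiment, which holds the high 1 h libraries just described. Without it 0 members were called, although the values were below 0 for those 8, JAZ7 at -1.26 (adjusted p = 0.30). JAZ3 was then at -0.44 (0.11), near its value in the main fit. Fewer libraries enter the fit without that experiment, and the part of this in the lost calls was not tested. Without the 17 to 37 °C experiment 3 were called, and leaving out single libraries gave 2 to 8.

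In the same step MYC2 fell by 1.38 ± 0.32 on the log2 scale (adjusted p = 0.012), MYC4 by 0.99 ± 0.09 (1.3e-05) and JAM1 by 0.85 ± 0.25 (0.039), which makes 3 of 8 transcription factors. On the breakdown list, CYP94B3 (-3.71 ± 0.48, 0.00045), CYP94C1 (-2.48 ± 0.54, 0.0082), JMT and CYP94B1 were the 4 of 10 that fell. The synthesis genes LOX4 (-2.61 ± 0.56, 0.0094) and AOC3 (-1.33 ± 0.35, 0.022) were the 2 of 13 that fell. Of the early touch and wound genes 8 of 15 had fallen a step sooner, from 15 min to 1 h, led by WRKY40 (-2.70 ± 0.58, 0.038) and ZAT10 (-2.62 ± 0.27, 0.00058), and ERF6 and WRKY33 rose from 1 h to 4 h. Other jasmonate genes were called higher from 15 min to 1 h. They include JOX4 (log2 fold change 7.22), JOX2 (2.41), ST2A (2.09) and ILL6 (1.67) of the breakdown list, and the late jasmonate target TAT3 (2.84). JAZ4, which belongs to the clade of JAZ3 and JAZ9, rose from 1 h to 4 h (1.09 ± 0.22, 0.0051), opposite to the 8 members. JAZ13 fell with them (-3.61 ± 0.98, 0.024), from 0.678 to 9.70 TPM at 1 h to at most 0.762 TPM at 4 h. JAZ11 did not pass. Set directly against 0 min, the 4 h unshifted libraries were higher for JAZ1 (0.84 ± 0.26, adjusted p = 0.036) and JAZ3 (0.68 ± 0.10, 0.00033), 2 of 10 members where 11.9% of genes were higher. The JAZ1 call was lost without either experiment that has 1 library per group (adjusted p 0.12 without 17 to 37 °C and 0.080 without 22 to 27 °C), and without each of 6 libraries left out in turn. Outside the JAZ family, the transcription factor ORA59 (log2 fold change 4.56) and the synthesis genes AOC2 (2.76) and AOC1 (2.12) were also higher at 4 h than at 0 min. So were JOX4 (5.88), ST2A (1.94), JOX2 (1.91) and JOX3 (1.77) of the breakdown list, and TAT3 (2.94). MYC4 (-1.46), TPL (-0.45) and COI1 (-0.34) were lower.

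**Figure D4:**
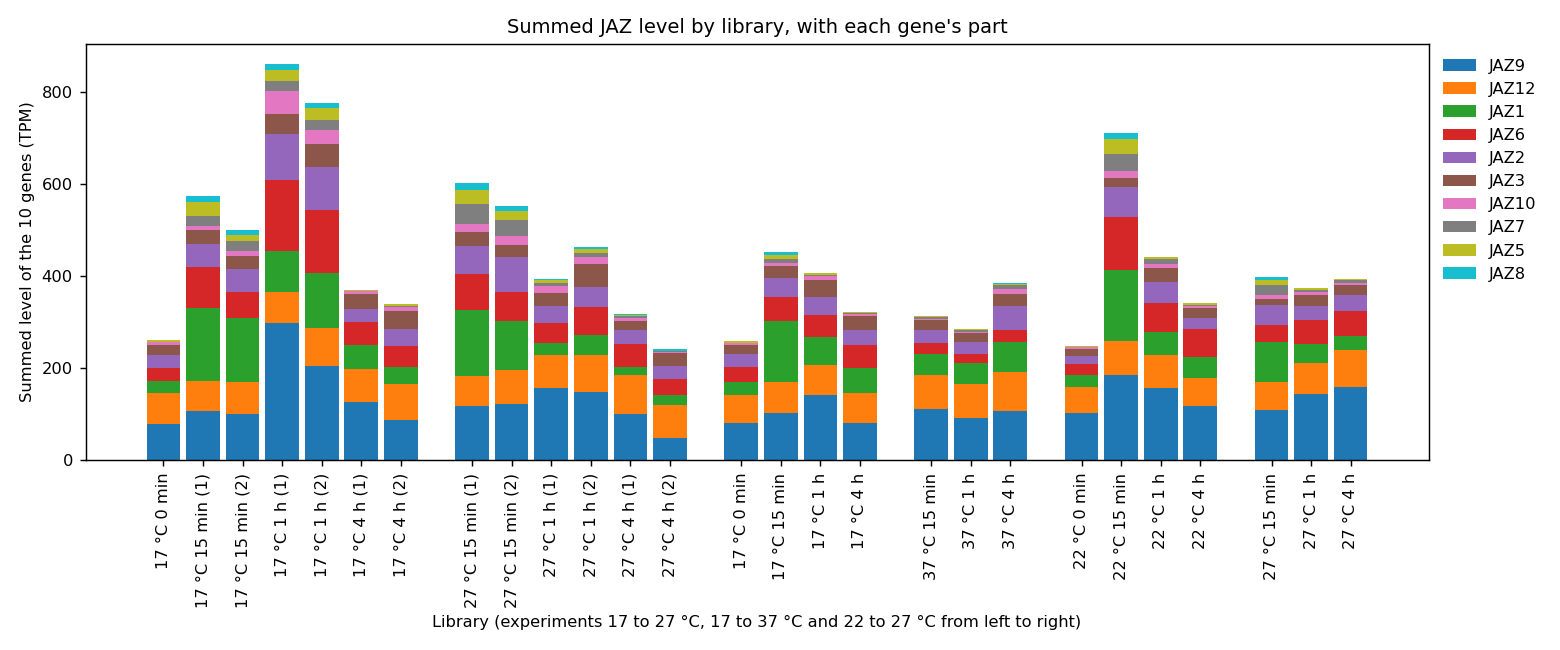
Summed TPM of the 10 JAZ genes in each library (bars), with each gene's part in colour, by experiment, temperature and time; numbers in brackets are replicate numbers. The 17 °C libraries at 1 h of the 17 to 27 °C experiment reach 862 and 776 TPM, and the 0 min libraries hold 249 to 261 TPM.

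In seedlings moved from 17 to 27 °C, JAZ levels at 15 min lay near or above those at 17 °C, and after 1 h most lay below them. At 15 min JAZ1 was at 144 and 108 TPM at 27 °C beside 159 and 138 TPM at 17 °C, a fitted difference of -0.03 ± 0.27. JAZ7 was at 42.1 and 35.2 TPM beside 22.0 and 22.2 TPM (0.96 ± 0.48), and JAZ10 at 17.3 and 19.6 TPM beside 10.06 and 9.98 TPM (0.95 ± 0.35, adjusted p = 0.87). JAZ2 was at 61.3 and 77.1 TPM beside 49.6 and 51.1 TPM (0.60 ± 0.19, adjusted p = 0.69). The warm libraries stood above the cool ones for JAZ2, JAZ7, JAZ10 and also JAZ9 at this time. However, 0 members were called by edgeR or DESeq2, where 0.218% of genes were called by edgeR, and 2 had an unadjusted p under 0.05. The fitted difference was above 0 for 9 of 10 members, with a median of 0.32.

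After 1 h JAZ2 was lower at 27 °C, at 37.9 and 44.9 TPM against 101.8 and 94.7 TPM at 17 °C (log2 fold change -1.02 ± 0.20, edgeR adjusted p = 0.0497). It was the 1 member called lower, where 0.393% of genes were, and the call sits at the threshold. JAZ1 was at 25.5 and 44.3 TPM against 89.6 and 118 TPM (-1.38 ± 0.28, 0.054), and JAZ6 at 43.0 and 59.3 TPM against 154 and 137 TPM (-1.34 ± 0.29, 0.067). JAZ8 was at 1.15 and 3.87 TPM against 12.7 and 9.91 TPM (-2.005 ± 0.51, 0.10). For each of these 4 genes both warm libraries stood below both cool ones, as they did for JAZ5, JAZ7, JAZ9 and JAZ10.

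JAZ5 (-1.43 ± 0.49, 0.20), JAZ10 (-1.26 ± 0.36, 0.14) and JAZ7 (-1.08 ± 0.51, 0.34) had values of like size, and JAZ9 (-0.51 ± 0.41), JAZ3 (-0.09 ± 0.21) and JAZ12 (0.27 ± 0.18) smaller ones. In each of the pairs of same-numbered libraries 9 of 10 members had the lower TPM at 27 °C, and the members' median was -1.17 against -0.01 over all genes. Libraries of the same number and time deviated together, and once the replicate number entered as a block within each time, 6 members were called lower: JAZ1, JAZ2, JAZ5, JAZ6, JAZ8 and JAZ10, with adjusted p from 0.0025 (JAZ6) to 0.034 (JAZ8) for those that were added. With 1 block over all times 3 were called, and DESeq2 called 4. Leaving out any 1 of the 4 libraries left 0 called, as did leaving out both libraries with the high chloroplast share, where JAZ2 kept a value of -1.04 (adjusted p = 0.26).

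The control side of this comparison is the pair of 17 °C libraries whose JAZ levels stood above the unshifted 1 h libraries of the other experiments. Beside the unshifted 1 h libraries of the other experiments, at 17 and at 22 °C, the warm libraries differed from member to member. JAZ2 was at 37.9 and 44.9 TPM in the warm libraries, beside 38.9 and 45.0 TPM. JAZ7 was at 7.60 and 9.50 TPM beside 2.73 and 10.7 TPM, JAZ10 at 14.0 and 14.8 TPM beside 7.82 and 7.70 TPM, and JAZ5 at 7.23 and 8.97 TPM beside 4.04 and 4.95 TPM. JAZ1, at 25.5 and 44.3 TPM, lay below both (60.8 and 51.7 TPM). No test was made across the experiments. LOX4 of the synthesis genes (-1.82 ± 0.34, adjusted p = 0.047) and CYP94C1 of the breakdown genes (-2.08 ± 0.31, 0.026) were lower at 27 °C in the same comparison, 1 of 13 and 1 of 10. The early touch and wound genes had 0 of 15 called with a median of -0.80, their summed level being 283 and 457 TPM at 27 °C and 495 and 892 TPM at 17 °C; its part in the JAZ difference was not tested.

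After 4 h JAZ1 was at 17.8 and 22.9 TPM at 27 °C and at 52.6 and 36.5 TPM at 17 °C (-1.22 ± 0.28, adjusted p = 0.17). With 0.0324% of genes called at this time, 0 members were called by edgeR and 3 had an unadjusted p under 0.05. DESeq2 called 1, JAZ1 (adjusted p = 0.0059), and the block within each time called JAZ1 (0.049) and JAZ9 (0.039), all lower. JAZ7 was high in 1 warm library only, at 5.61 and 0.841 TPM against 1.04 and 1.28 TPM. Over the 3 times together 0 members were called by edgeR, where 1.51% of genes were, 1 had an unadjusted p under 0.05, and 8 of 10 were below 0 (median -0.31). JAZ1 had the strongest value (-0.87 ± 0.23, adjusted p = 0.089). It was called lower by DESeq2 (0.0097), without the 15 min libraries (-1.302, 0.024) and without the 27 °C 15 min library numbered 1 (-1.05, 0.021).

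The change of the 27 °C difference with time was tested as such. From 15 min to 1 h it moved downward for 9 of 10 members, by -1.61 ± 0.28 for JAZ2 (adjusted p = 0.16), -2.21 ± 0.50 for JAZ10 (0.32), -2.04 ± 0.70 for JAZ7 (0.66) and -1.35 ± 0.38 for JAZ1 (0.50), with a median of -1.53. By edgeR 0 members passed, as did 0.0% of all genes, 7 members had an unadjusted p under 0.05, and DESeq2 called 2 (JAZ2 and JAZ10). With the block within each time 4 were called (JAZ2, JAZ5, JAZ6 and JAZ10). From 15 min to 4 h the change had a median of -0.83, and 0 members and 0.0% of genes passed, with 4 members at an unadjusted p under 0.05 and 0 by DESeq2.

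**Figure D5:**
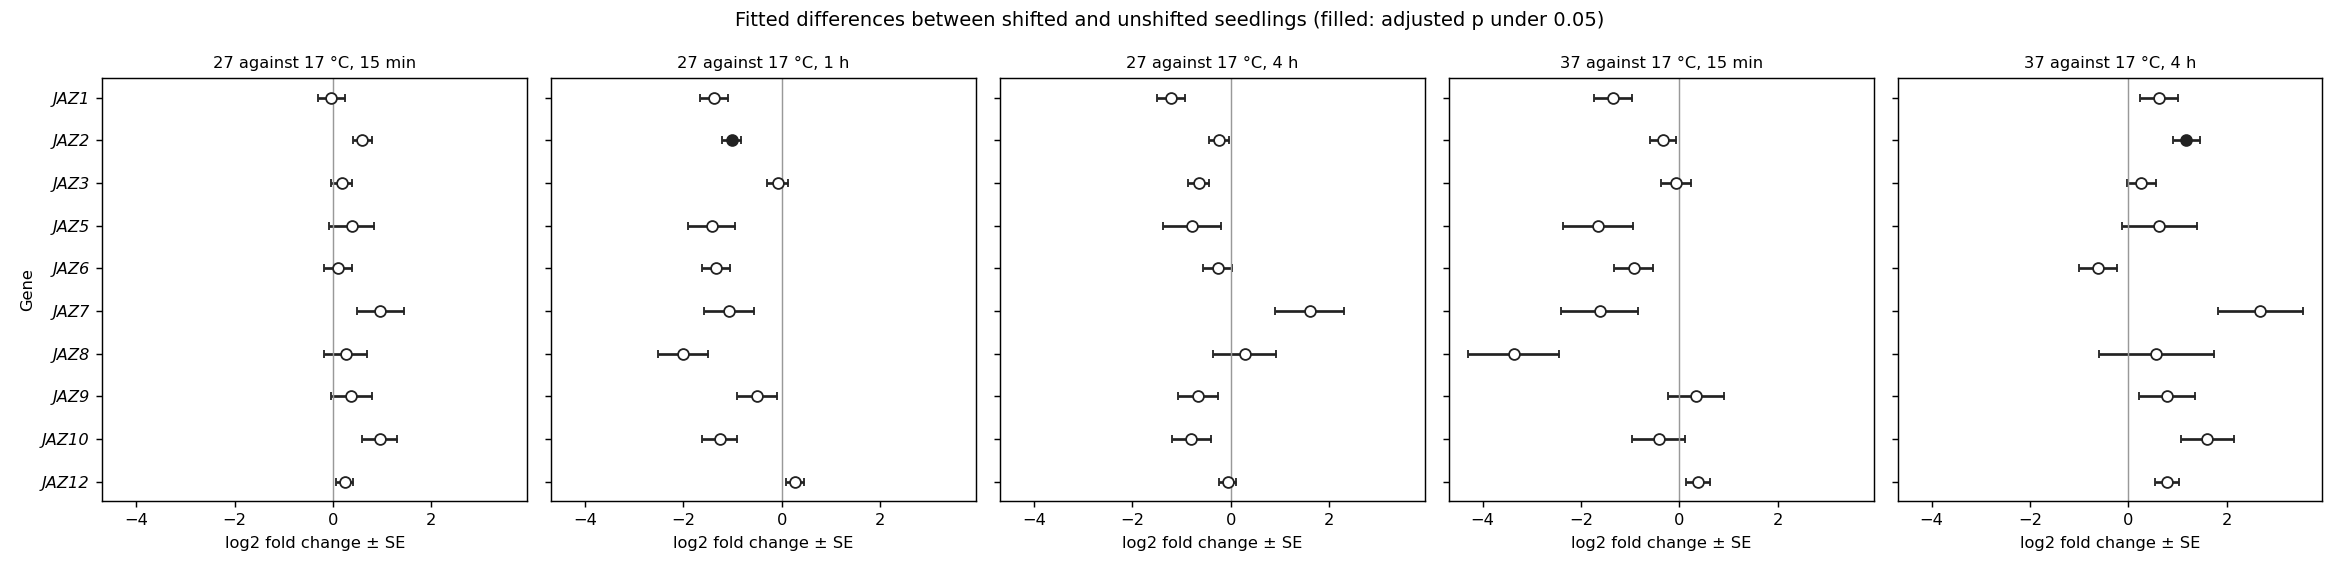
Fitted log2 fold changes (± SE) of each JAZ gene, shifted against unshifted seedlings, for 27 against 17 °C at 15 min, 1 h and 4 h and for 37 against 17 °C at 15 min and 4 h; filled symbols have an edgeR adjusted p under 0.05. JAZ2 is filled below 0 at 27 °C after 1 h (-1.02) and above 0 at 37 °C after 4 h (1.18).

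At 37 °C the JAZ1 peak at 15 min was much smaller in the single library of each kind: 45.0 TPM at 37 °C and 134 TPM at 17 °C, from 28.2 TPM at 0 min. JAZ7 was at 2.91 TPM against 9.94 TPM (20 against 81 counts, a 3.71-fold ratio with a counting interval of 2.25 to 6.40), and JAZ8 at 0.407 TPM against 5.11 TPM (2 against 29 counts, 13.3-fold with an interval of 3.36 to 114.9). JAZ5 was at 2.34 against 8.40 TPM and JAZ6 at 24.1 against 52.0 TPM. JAZ9 (112 against 103 TPM) and JAZ12 (73.1 against 67.2 TPM) stood a little higher in the warm library.

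With 1 library a group, these differences were tested with the spread of the duplicated groups of the 17 to 27 °C experiment, on the assumption that single libraries vary like them. JAZ1 had a log2 fold change of -1.35 ± 0.38 (adjusted p = 0.11) and JAZ8 of -3.37 ± 0.93 (0.099). At 15 min 0 members were called, where 2.46% of genes were, 4 had an unadjusted p under 0.05, DESeq2 called 0, and the median was -0.68. The summed level of early touch and wound genes was 916 TPM at 37 °C and 825 TPM at 17 °C in these libraries, with 0 of 15 called and a median of -0.20, and its part in the JAZ values was not tested. In the direct test of 37 °C against 27 °C at 15 min, each against its own 17 °C controls, 9 of 10 members were below 0 with a median of -1.18, led by JAZ8 (-3.63 ± 1.03, 0.26) and JAZ7 (-2.59 ± 0.93, 0.39). By edgeR 0 members were called there, where 0.4% of genes were, 5 had an unadjusted p under 0.05, and DESeq2 called 0.

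After 4 h at 37 °C most members stood above their 17 °C level. JAZ2 was higher, at 53.9 TPM against 31.8 TPM at 17 °C (1.18 ± 0.27, adjusted p = 0.018), and was the 1 of 10 members called; 6.16% of genes were called higher at this time. JAZ7 was at 8.61 against 1.79 TPM (2.69 ± 0.87, 0.064), JAZ10 at 11.0 against 5.21 TPM (1.61 ± 0.54, 0.070) and JAZ12 at 85.7 against 65.9 TPM (0.79 ± 0.25, 0.057). JAZ6 was the 1 member below 0, at 26.1 against 51.4 TPM (-0.62 ± 0.40, 0.32). The members' median fitted value was 0.71. Outside the members, JAZ4 was at 1.06 against 11.5 TPM, JAZ11 at 10.4 against 14.9 TPM and JAZ13 at 0.778 against 0.208 TPM. The log2 fold change was -2.20 for the synthesis gene AOC2 and -4.30 for the late jasmonate target VSP1. It was 0.91 for MYC4 and 0.89 for HDA6. By TPM 8 of 10 members were higher and 2 lower, JAZ3 being at 25.8 against 30.3 TPM. The fits scale libraries by TMM, which TPM does not. The TPM ratios of JAZ2 (1.694) and JAZ12 (1.299) were smaller than their fitted changes. JAZ12 passed as well with DESeq2's size factors in edgeR (adjusted p = 0.047), and JAZ7 without either of the 27 °C libraries at 4 h, which enter this fit through its spread (0.0078 in each case).

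At 1 h, 7 of 10 members were below 0 at 37 °C with a median of -0.25. By edgeR 0 were called, where 4.83% of genes were, 2 had an unadjusted p under 0.05, and DESeq2 called 0. The change of the 37 °C difference from 15 min to 4 h was above 0 for all 10 members, with a median of 1.74, JAZ7 at 4.31 ± 1.17 (0.21), JAZ1 at 1.98 ± 0.54 (0.21) and JAZ2 at 1.51 ± 0.38 (0.17). None of them passed in edgeR or DESeq2, where 0.198% of genes did in edgeR, and 5 members had an unadjusted p under 0.05.

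Taking the 3 times as replicates of the move to 37 °C, JAZ6 fell (-0.83 ± 0.14, edgeR adjusted p = 0.020) and JAZ12 rose (0.59 ± 0.13, 0.036). JAZ6 was at 24.1, 20.1 and 26.1 TPM at 37 °C and at 52.0, 48.6 and 51.4 TPM at 17 °C, and these ranges did not overlap. JAZ12 was at 73.1, 74.0 and 85.7 TPM against 67.2, 64.8 and 65.9 TPM, again with no overlap. Its TPM ratios of 1.087, 1.142 and 1.299 were smaller than its fitted change, which rests on TMM scaling. The calls are 2 of 9 tested members, a share close to the 21.2% of all genes that were called. JAZ8 was too low to be tested in this fit. Either call was lost without the 15 min libraries (adjusted p 0.056 and 0.057) and without the 1 h libraries (0.15 and 0.20), and JAZ12 also without the 4 h libraries (0.057). JAZ12 overlaps the gene AT5G20910 by 28 bases, and the strand setting of the counting is not given in the sources used here.

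In the same comparison the adaptor ASK1 and the scaffold CUL1 of the COI1 ubiquitin ligase and the co-repressor TPL rose (3 of 7 receptor and co-repressor genes), TPL by 0.62 ± 0.11 (adjusted p = 0.022). The transcription factors ORA59 (-4.85 ± 0.96, 0.029) and JAM2 fell (2 of 9), as did the synthesis genes OPCL1 and OPR3 (2 of 13), the breakdown genes ST2A and IAR3 (2 of 10), and the late jasmonate targets VSP2 (-3.19 ± 0.67, 0.035) and VSP1 (-2.92 ± 0.48, 0.021), storage proteins, 2 of 4 tested. The root hair genes EXPA7 (-2.50 ± 0.46, 0.027) and COBL9 (-1.53 ± 0.25, 0.019) were lower too, and RCA of the 5 shoot markers was higher. The root markers CASP1 and CASP2 did not pass. The summed shoot markers ranged from 14148 to 16891 TPM over this experiment's libraries. The summed root markers stood at 108, 94.6 and 88.0 TPM at 37 °C after 15 min, 1 h and 4 h. In the 17 °C libraries of this experiment they stood at 130 to 185 TPM. The part of these markers in the JAZ values was not tested. Among the early touch and wound genes called at 37 °C over the 3 times, ZAT11 (-3.40 ± 0.45, 0.012) and ERF5 (-2.06 ± 0.34, 0.020) were lower. ZAT12 (3.03 ± 0.37, 0.011) and TCH3 (0.84 ± 0.12, 0.013) were higher. Set against the 27 °C effect over 3 times, the 37 °C effect differed for 0 members in edgeR, where 15.8% of genes differed, 1 had an unadjusted p under 0.05, and DESeq2 called JAZ12 higher (adjusted p = 0.047). Without the 15 min libraries JAZ1 was called (1.56, 0.017).

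At 4 h alone the 37 °C effect did differ from the 27 °C effect in the TMM-scaled fit, for JAZ1 and JAZ2. By TPM the effects lay closer together than in this fit. JAZ1 stood at 63.9 TPM at 37 °C against 53.0 TPM at 17 °C, while the 27 °C libraries were at 17.8 and 22.9 TPM against 52.6 and 36.5 TPM, a difference of effects of 1.85 ± 0.48 (edgeR adjusted p = 0.043). For JAZ2 the 27 °C libraries, at 30.3 and 27.3 TPM, were close to their controls at 27.3 and 36.4 TPM, and the difference of effects was 1.43 ± 0.33 (0.031). These are 2 of 10 members, where 3.35% of genes were higher, and the members' median was 1.27 with 9 of 10 above 0. JAZ10 was at 2.42 ± 0.66 (0.052), and DESeq2 called it as a member beside those 2 (0.0495). The JAZ1 call was lost without the 17 °C library numbered 1 (adjusted p = 0.087), the 27 °C library numbered 1 (0.11) or the 27 °C library numbered 2 (0.054), and the JAZ2 call without the 17 °C library numbered 2 (0.071) or either 27 °C library (0.069 and 0.074). JAZ7 was called without the 27 °C library numbered 1 (4.11, 0.038). At 1 h the difference of effects had a median of 0.70 and 0 members were called by edgeR or DESeq2, where 1.77% of genes were called by edgeR, with 2 members at an unadjusted p under 0.05.

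In seedlings moved from 22 to 27 °C, with 1 library a group, every member had the lower level at 15 min. JAZ1 was at 87.1 TPM at 27 °C against 154 TPM at 22 °C, JAZ6 at 36.9 against 114 TPM, JAZ5 at 9.02 against 32.3 TPM and JAZ7 at 23.0 against 37.6 TPM. At 1 h 9 of 10 had the lower TPM and at 4 h 4 of 10. In the 17 to 27 °C experiment at 15 min, 7 and 8 of 10 members had the higher TPM at 27 °C in the pairs of same-numbered libraries. Tested as such, the difference between these effects at 15 min was below 0 for all 10 members, with a median of -1.22. By edgeR 0 members and 0.0% of genes passed, 4 members had an unadjusted p under 0.05, and DESeq2 called 0. At 1 h and at 4 h the same test gave medians of 0.72 and 0.57, again with 0 members and 0.0% of genes called by edgeR, 1 and 0 members at an unadjusted p under 0.05, and 0 by DESeq2.

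No member was called by edgeR or DESeq2 at a single time, where edgeR called 0.0% of genes at 15 min and at 1 h and 0.018% at 4 h. An unadjusted p under 0.05 was found for 3, 1 and 0 members at 15 min, 1 h and 4 h. Over the 3 times all 10 fitted values were below 0, with a median of -0.38. JAZ1 was at -0.60 ± 0.15 (adjusted p = 0.14) and JAZ5 at -1.25 ± 0.32 (0.15). By edgeR 0 members were called, where 0.31% of genes were, 3 had an unadjusted p under 0.05, and DESeq2 called 0. Without the 4 h libraries JAZ2 was called lower (-0.68, 0.049). OPCL1 (-0.9996 ± 0.14, 0.044) of 13 synthesis genes and VSP2 (-1.16 ± 0.14, 0.034) of 3 late targets were lower in the same fit. The difference between the 22 to 27 °C and 17 to 27 °C effects over 3 times had a median of -0.10, and 0 members and 0.0% of genes passed in edgeR, none with an unadjusted p under 0.05 and none in DESeq2.

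Over the shifted libraries of the 3 experiments, 0 members and 0.0% of genes were called from 15 min to 1 h or from 1 h to 4 h in edgeR, and 0 members in DESeq2. The unadjusted p was under 0.05 for 2 members in the first step and 0 in the second. Without the 17 to 37 °C experiment JAZ1 (-1.52, adjusted p = 0.032) and JAZ8 (-2.36, 0.035) were lower at 1 h than at 15 min, and JAZ5 (-2.55, 0.013) and JAZ10 (-1.59, 0.040) lower at 4 h than at 1 h. Leaving out the single 37 °C library at 15 min, or that at 4 h, gave the same pair of genes in each step. Side by side, JAZ1 ran from 144 and 108 TPM at 15 min to 17.8 and 22.9 TPM at 4 h at 27 °C in the first experiment, and from 45.0 to 63.9 TPM at 37 °C.

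Across the 27 libraries the members did not all vary together. The highest Pearson correlation of log2 CPM was between JAZ2 and JAZ10 (r = 0.94), followed by JAZ2 with JAZ7 (0.86) and JAZ5 with JAZ8 (0.83). JAZ5 had a median r of 0.81 with the other members, JAZ3 of 0.34 and JAZ12 of 0.33, and JAZ12 with JAZ5 was at 0.01. The 6 genes outside the family whose profile was most like the mean standardised JAZ profile, among 13950 genes whose mean log2 CPM reached 3, were AT4G21570 (r = 0.89), AT5G16360 (0.87), LOX3 (0.86), ECS1 (0.85), NTMC2T6.2 (0.85) and MUB4 (0.84). LOX3 is a lipoxygenase of jasmonate synthesis. It was at 3.27 TPM at 0 min, 13.8 TPM at 15 min, 29.1 TPM at 1 h and 3.002 TPM at 4 h in the 17 °C libraries numbered 1 of the first experiment, and at 23.3 TPM at 1 h in the one numbered 2. At 37 °C it was at 2.38, 2.83 and 3.25 TPM at 15 min, 1 h and 4 h, beside 4.35, 3.66 and 3.96 TPM in the 17 °C libraries of that experiment. These correlations are descriptions: the libraries share experiments and times, so they carry no p.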

How the data were processed

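The authors deposited 1 table per library with raw counts, FPKM and TPM per gene, per the file headers; FPKM was not used beyond a check that it rescales to the deposited TPM. Reads were paired-end and made with 2 TruSeq kits, a stranded one and v2, per the labels' protocols, which do not say which library had which. The submitters' processing notes name FastQC, Trimmomatic, TopHat, Picard and TAIR10; for the counter and its strand setting the sources used here give nothing. Whether replicates were separate cultures is not said in the labels, so the spread behind the p-values may be technical. The duplicates differed far beyond counting noise (chi-square per degree of freedom 28.4 to 88.3).

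Counts were fitted with edgeR 4.0.16 in R 4.3.3 (TMM, filterByExpr, robust quasi-likelihood F test, two-sided), Benjamini-Hochberg over all genes tested, called at an adjusted p under 0.05. DESeq2 1.42.0 was an alternative. Log2 CPM for correlations used a prior count of 2. Each comparison across many genes was fitted on the whole table; residual degrees of freedom were 2 to 10. Same-numbered libraries of the 17 to 27 °C experiment deviated together within a time (r 0.41 to 0.55 over 3 pairs) and less strongly across times (-0.07 to 0.38 over 12 pairs), so the block within each time was taken as the paired fit. The title and the characteristics of that experiment's 0 min library give different replicate numbers; the title's was used. In simulated counts the 27 against 17 °C fit over 3 times, on 20665 genes, recovered 96% of changes of 2 on the log2 scale. It recovered 82% of changes of 1 and made 4 false calls. The unshifted 15 min against 0 min fit, on 20867 genes, recovered 97% and 90%, with 5 false calls. The changed genes were drawn only from genes with a mean above 10 CPM in the libraries fitted, and the rates were not split by expression level. They therefore do not speak for low-count members such as JAZ5, JAZ7 and JAZ8. Recovery was not tested with same-numbered libraries deviating together. Organelle genes stayed in the library sizes.

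All members are described; from other lists, at most 4 genes past the test are named, those with the largest fold changes. The 10 members and all lists were chosen with earlier results of these data known. Of the 29 comparisons, 8 were added after seeing the data: the changes of the 37 °C difference from 15 min to 4 h and of the 27 °C difference from 15 min to 1 h, and, at single times, 37 against 27 °C and 22 to 27 against 17 to 27 °C. Gene names and promoters are from RefSeq (TAIR10.1); all 10 names matched. 1 root marker is not reported here.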

Additional observations from a re-analysis of the deposited data

Results flagged for a closer look

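At 4 h the effect of 37 °C, against its own 17 °C control, differed from the effect of 27 °C, against its own 17 °C controls, for JAZ1 (difference of log2 fold changes 1.85 ± 0.48, edgeR adjusted p = 0.043). For JAZ2 it differed by 1.43 ± 0.33 (adjusted p = 0.031). Both were picked out by that test of the difference itself, which was added after seeing the data and rests on 1 library each at 37 °C and at its 17 °C control. JAZ1 stood above its control at 37 °C and below it in both pairs at 27 °C. JAZ2 stood above its control at 37 °C and on either side of it at 27 °C. The TPM ratios of JAZ1 to its controls were 1.206 at 37 °C and 0.339 and 0.628 at 27 °C. Those of JAZ2 were 1.694 at 37 °C and 1.111 and 0.751 at 27 °C. The fits scale libraries by TMM, which TPM does not, and by TPM the effects lay closer together. Over the alternatives run, the adjusted p of JAZ1 ranged from 0.0062 to 0.11 and that of JAZ2 from 0.019 to 0.074.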

How the results depend on the processing

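Directions of called members did not reverse under any alternative run. The number of members called moved as follows. With DESeq2 it was 1 for 27 against 17 °C over 3 times (0 in the main fit), 4 at 1 h (1) and 1 at 4 h (0), 2 for the change of the 27 °C difference from 15 min to 1 h (0), 1 for 37 °C minus 27 °C over 3 times (0), 7 for unshifted 15 min against 0 min (3) and 2 for 1 h against 15 min (1). Without a filter on low counts it was 3 for 27 °C at 1 h. With the replicate number as a block it was 3 at 1 h, and with the block within each time 6 at 1 h, 2 at 4 h and 4 for the change from 15 min to 1 h; the block changed no other count by over 1.5 times. With DESeq2's size factors in edgeR it was 2 for 37 °C at 4 h. Without the 1 h libraries numbered 1 it was 0 for 27 °C at 1 h, an alternative chosen after seeing the data.

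Leaving out times, the count was 1 for 27 °C over 3 times, 0 for 37 °C over 3 times and 1 for 37 °C minus 27 °C without 15 min, 0 for 37 °C without 1 h, and 1 for 37 °C and 1 for 27 against 22 °C without 4 h. Leaving out experiments, unshifted 4 h against 1 h gave 0 without 17 to 27 °C and 3 without 17 to 37 °C (8 in the main fit), unshifted 4 h against 0 min gave 1 without 17 to 37 °C and 1 without 22 to 27 °C (2), and both shifted steps gave 2 without 17 to 37 °C (0). Leaving out single libraries gave 0 to 1 for 27 °C over 3 times, 0 for each single time of 27 °C and for both changes of its difference, 0 for 37 °C at 15 min and at 1 h and 1 to 2 at 4 h, 0 to 1 for 37 °C minus 27 °C at 4 h (2) and 0 at the other times, 0 for 22 to 27 °C minus 17 to 27 °C at each time, 2 to 3 for unshifted 15 min against 0 min, 1 to 2 for 1 h against 15 min, 2 to 8 for 4 h against 1 h, 1 to 2 for 4 h against 0 min, and 0 to 2 for each shifted step; a library left alone in its group is then assumed to vary like the others. Fewer samples enter these fits, and the cause of the other moves was not tested. Depth limits JAZ7 and JAZ8, which had 7 and 3 counts in all at 0 min.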
